A study of Rattus norvegicus with 16 samples.

Results

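The genes described here are 8 regulators of cell death and survival, measured in rat thyroid cells after reduction of Pax8. They are *Bcl2*, *Bcl2l1*, *Mcl1*, *Bax*, *Bid* and *Bcl2l11* of the Bcl2 family, the caspase gene *Casp1* and the death receptor gene *Fas*. Each array probe carried an accession that was looked up in RefSeq, and every probe that resolved to one of these symbols was kept. This gave 13 probes of the 41012 on the arrays, on which 8899 genes could be named. PCCl3 is a differentiated line of follicular cells from the Fischer rat thyroid, grown with TSH and other hormones. Cells that had been transiently given siRNA to *Pax8* (si*Pax8* cells) were compared on Agilent whole genome arrays with wild type (wt) cells, and on other arrays with cells that had received a scrambled siRNA (siScramble cells). Each comparison had 4 biological replicates, each hybridized in both dye orientations. Both siRNAs were delivered with Lipofectamine 2000 at 10 ng/ml, and RNA was extracted 48 hours afterwards. The labels call the remaining cells wild type, the methods describe them as treated with lipofectamine and a supplement as not transfected, so the wt comparison may differ from the siScramble comparison in the transfection itself. All samples come from 1 cell line, and by the design scheme both comparisons drew on shared si*Pax8* samples.

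The Bcl2 family decides whether the outer mitochondrial membrane is breached. Its guardians (Bcl2, Bcl-xL, encoded by *Bcl2l1*, and Mcl1) hold back the pore formers Bax and Bak, and BH3-only proteins such as Bim, encoded by *Bcl2l11*, and Bid relieve that block. Once the membrane opens, cytochrome c assembles the apoptosome and caspases are activated, whereas Fas starts the same proteolytic cascade from the cell surface. Caspase-1 belongs to another branch, in which inflammasomes process interleukins. In the thyroid, Fas and the Bcl2 family have mostly been studied in autoimmune thyroiditis, where follicular cells are lost.

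*Pax8* itself (probe A_43_P12538, NM_031141) had log2 ratios of si*Pax8* over wt cells of -0.84, -0.57, -0.59 and -0.26 in replicates 1 to 4. The mean of -0.56 ± 0.24 (SD, n = 4; limma adjusted p = 0.000496) means that 67.6% of the level in wt cells remained. Every sign in this report is si*Pax8* over control as the dye labels give it, which is opposite to the wording of the study's text on down- and up-regulated probes. Against siScramble cells the ratios of *Pax8* were -0.58, -0.29, -0.12 and -0.01, with a mean of -0.25 ± 0.25 (SD, n = 4; limma adjusted p = 0.147). The reduction was thus past the adjusted p threshold of 0.005, which was that of the study's methods, against wt cells and not against siScramble cells. It was short of it against wt cells without replicate 3 (-0.56, limma adjusted p = 0.00576), when only the arrays with si*Pax8* in Cy3 were used (-0.47, limma adjusted p = 0.0185), with median centring in place of loess and quantile normalization (-0.56, limma adjusted p = 0.00626) and with Agilent's own processed intensities (-0.58, limma adjusted p = 0.0132).

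The arrays had 52.9% to 59.5% of their spots well above background in Cy3 and 51% to 57.9% in Cy5, and precision is limited by how many arrays there were. Of the 9 thyroid follicular cell markers listed, 8 were on the arrays, and *Tg*, *Slc5a5*, *Tshr*, *Foxe1*, *Hhex* and *Pax8* were well above background on all 8 arrays of every group. Of these 8 markers, 6 passed the threshold downwards against wt cells, *Epcam* was higher, and only *Tg* was lower than in siScramble cells (the last 2 named after their values were seen). *Epcam* lay near background: it was well above it on 0 of 8 arrays in wt and in siScramble cells. In si*Pax8* cells it was so on 7 of 8 arrays beside wt and 6 of 8 beside siScramble cells. Interferon response genes moved in the same comparisons, with at least 1 probe called higher for 16 of 20 genes against wt cells (median 0.99) and 2 of 20, *Irf7* and *Rsad2*, against siScramble cells (median 0.20; chosen after their values were seen). Of the markers of leukocytes, endothelium, fibroblasts and C cells, *Itgam*, *Pecam1* and *Dcn* were not well above background on any array. By contrast *Cd68*, the fibroblast gene *Col1a2* (A_43_P12783) and the C cell gene *Calca* (A_43_P11924) were so on all 8 arrays of every group. The second probe of *Calca* was so on none and that of *Col1a2* on at most 1 array of a group. Among all these markers *Cd68* alone passed the threshold, with 0.30 against wt cells (limma adjusted p = 0.000829). The part of these shifts in the values of the death genes was not tested, and in RNA from whole cultures a lower proportion of cells that express a gene cannot be told apart from less RNA per cell.

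Relative to wt cells, 2 of the 13 probes of these genes were higher in si*Pax8* cells, beside 7% of all probes, and 3 were lower, beside 8.19% of all probes. The higher ones were both probes of *Mcl1*, and the lower ones were the probe of *Bcl2l11* and both probes of *Fas*. Relative to siScramble cells 1 probe was higher, of *Mcl1*, where 1.18% of all probes were, and 1 was lower, of *Bcl2l11*, where 0.849% were. The 5 calls against wt cells were spread over 3 of the 8 genes. The median log2 ratio of the 8 genes was 0.02 against wt and 0.01 against siScramble cells, and that of all probes was -0.0036 and -0.0037. The largest change on a called probe was 1.35-fold.

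**Figure D1:**
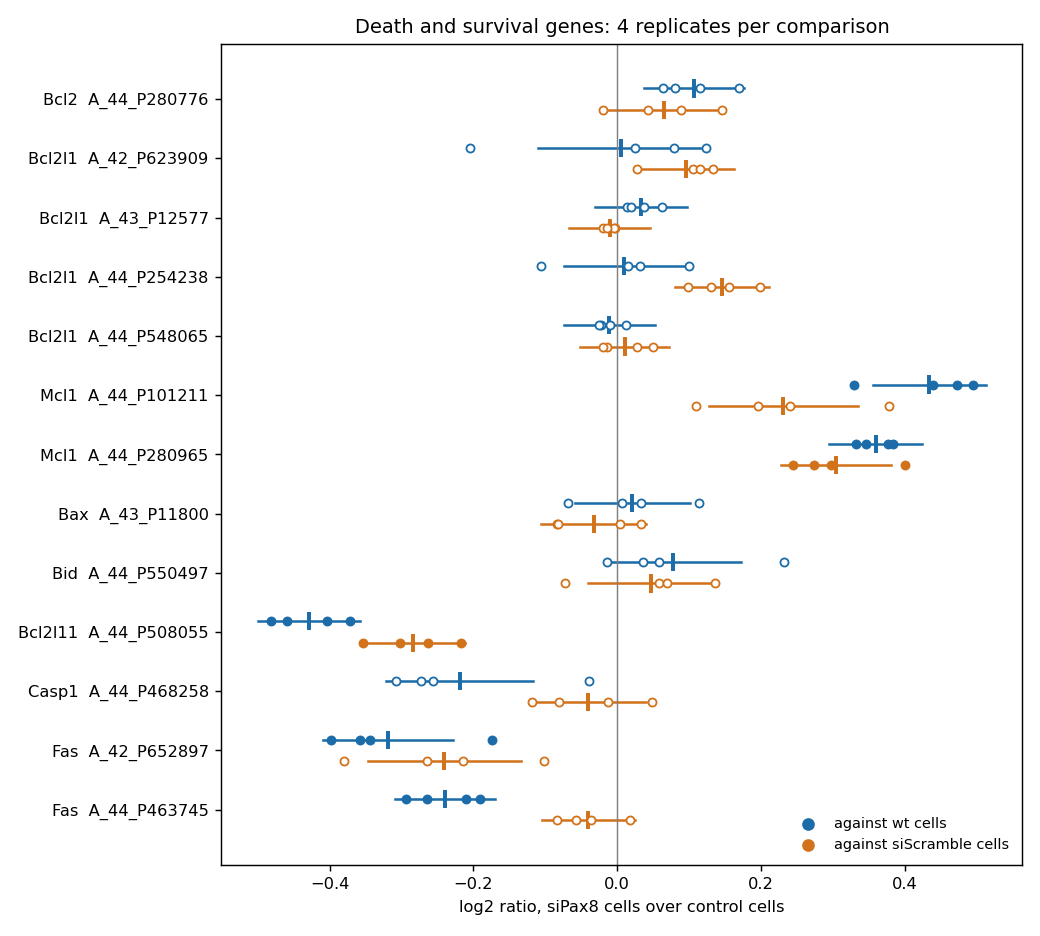
Log2 ratio of siPax8 over control cells (x axis) for each of the 13 probes of the 8 genes (y axis), against wt (blue) and siScramble cells (orange). Points are the 4 replicates of a comparison, filled where the probe passed the limma adjusted p threshold of 0.005 and open where it did not, the tick is the mean and the bar its 95% interval from limma; the probes of Mcl1 lie to the right and those of Bcl2l11 and Fas to the left of 0 against wt cells.

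The promoters of the 3 genes with a called probe are shown, of which *Mcl1* rose and *Bcl2l11* and *Fas* fell. RefSeq (build GRCr8) gave windows from 250 bases before to 50 bases after the start for 7 of the 8 genes, all but *Bax*, and the 250 bases before the start are printed below. Capitals mark the letters GGGCGG of a GC box, or CCGCCC where it lies on the other strand, and in *Fas* the letters TGANTCA of an AP-1 site.
*Bcl2l11*, chr3:135819792-135820041, + strand: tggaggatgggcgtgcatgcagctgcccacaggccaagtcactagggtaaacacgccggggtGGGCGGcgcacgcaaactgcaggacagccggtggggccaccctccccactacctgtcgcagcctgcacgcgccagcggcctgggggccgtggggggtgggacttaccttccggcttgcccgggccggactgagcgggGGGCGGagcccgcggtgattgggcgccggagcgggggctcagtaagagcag
*Mcl1*, chr2:185907918-185908167, + strand: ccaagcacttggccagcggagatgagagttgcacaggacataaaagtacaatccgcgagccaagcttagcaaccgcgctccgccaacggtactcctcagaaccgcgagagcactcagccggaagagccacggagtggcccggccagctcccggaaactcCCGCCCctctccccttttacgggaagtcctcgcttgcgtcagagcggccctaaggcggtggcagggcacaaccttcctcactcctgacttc
*Fas*, chr1:241211905-241212154, + strand: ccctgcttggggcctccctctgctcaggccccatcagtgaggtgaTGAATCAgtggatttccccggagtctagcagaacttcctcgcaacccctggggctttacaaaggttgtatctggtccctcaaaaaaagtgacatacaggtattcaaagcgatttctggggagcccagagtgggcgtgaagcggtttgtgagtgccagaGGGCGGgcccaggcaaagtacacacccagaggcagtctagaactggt
The GC box lay at -188 and -51 in *Bcl2l11*, at -91 in *Mcl1* and at -47 in *Fas*, counted from the start, and the AP-1 letters of *Fas* lay at -205. The same GC box letters were in the windows of *Bid* (3 matches), *Casp1* (1) and *Bcl2l1* (1, in 1 of its 4 windows), which had no call, and so in 6 of the 7 genes with a window. A GC box was found on either strand in 33.06% of 33469 promoter windows and the AP-1 letters in 7.329%, which are shares per window and not per gene. The windows of *Bcl2l11* and *Mcl1* were rich in G and C (71% and 64.3%, with 24 and 25 CpG), against 56.7% and 7 CpG in *Fas* and medians of 51.7% and 7 CpG over all windows. Other motifs searched on both strands were GCGTGAC, a core recognized by paired domains, the cyclic AMP element TGACGTCA, the interferon gamma site TTCNNNGAA, the interferon-stimulated element (GAAA, any 2 bases, GAAA) and the TATA box TATAAA, held by 1.999%, 1.829%, 8.874%, 3.92% and 14.22% of all windows. None of the windows of the 7 genes held the letters GCGTGAC or TGACGTCA. The interferon-stimulated element was found in *Casp1* at -28 and in *Fas* at 38, past the start and outside the bases printed. The interferon gamma letters had 2 matches in *Bcl2l1*, both within windows that overlap, and the TATA letters 1 match in *Bcl2*, at -109. These are matches of letters, with no measurement of binding.

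*Mcl1* encodes the short-lived guardian that restrains Bak and Bim, and it was the gene of this group that rose. Probe A_44_P101211 (NM_021846) gave log2 ratios of 0.33, 0.47, 0.44 and 0.49 against wt cells. All 4 were above 0 and lay close together, and their mean of 0.43 ± 0.07 (SD, n = 4; limma adjusted p = 2.7e-05) is a 1.35-fold higher level. Probe A_44_P280965 of the same transcript gave 0.35, 0.38, 0.38 and 0.33, with a mean of 0.36 ± 0.02 (SD, n = 4; limma adjusted p = 2.52e-05). In normalized log2 intensity A_44_P101211 stood at 10.76 ± 0.08 (SD, n = 4) in wt cells and at 11.20 ± 0.04 in the si*Pax8* cells hybridized with them. The probes of *Mcl1* thus had like ratios against wt cells, 1.35-fold and 1.28-fold.

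Against siScramble cells the *Mcl1* ratios were smaller. A_44_P280965 gave 0.27, 0.30, 0.24 and 0.40, a mean of 0.30 ± 0.07 (SD, n = 4; limma adjusted p = 0.0027), and rose 1.23-fold. A_44_P101211 gave 0.20, 0.24, 0.11 and 0.38, a mean of 0.23 ± 0.11 (SD, n = 4; 95% interval 0.13 to 0.33), and did not pass the threshold (limma adjusted p = 0.0218). All 8 ratios of the 2 probes were above 0. The call of A_44_P280965 was lost when any 1 of the 4 replicates was left out (0.27 to 0.32, limma adjusted p 0.00673 to 0.0243), whereas those against wt cells were kept (0.35 to 0.37 for A_44_P280965 and 0.41 to 0.47 for A_44_P101211). Agilent's own processed intensities ended both calls against wt cells (0.36 for A_44_P280965 and 0.46 for A_44_P101211, limma adjusted p = 0.00704 and 0.0063). The ratio of A_44_P280965 also depended on the dye, with si*Pax8* in Cy5 giving 0.51 and in Cy3 0.21 against wt cells, the latter short of the threshold (limma adjusted p = 0.00874). The same values were 0.41 and 0.20 against siScramble cells. Within the 4 slides, each with 2 arrays of each comparison, the *Mcl1* ratios were 0.31 to 0.47 against wt and 0.16 to 0.39 against siScramble cells. With the slide as a block both probes passed the threshold in both comparisons. That fit took the dye swaps of a replicate, which lay on different slides, as separate values, so its p-values rest on more values than replicates.

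The other guardians had no called probe. *Bcl2*, the founding member that holds Bax and BH3-only proteins at the membrane, was measured by probe A_44_P280776 (NM_016993), spotted 10 times on each array. Its ratios were 0.06, 0.17, 0.12 and 0.08 against wt cells, a mean of 0.11 ± 0.05 (SD, n = 4; 95% interval 0.04 to 0.18; limma adjusted p = 0.0305). Against siScramble cells they were 0.15, 0.09, 0.04 and -0.02, a mean of 0.06 ± 0.07 (SD, n = 4; 95% interval -0.01 to 0.14; limma adjusted p = 0.359). All 4 values against wt cells were positive but small, and 1 of 4 against siScramble cells was negative.

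*Bcl2l1*, whose main product Bcl-xL guards mitochondria in many epithelia, had 4 probes, of which A_43_P12577 was not well above background on any array. Against wt cells A_44_P254238 (NM_001033670) gave -0.11, 0.01, 0.03 and 0.10, a mean of 0.01 ± 0.09 (SD, n = 4; 95% interval -0.07 to 0.09; limma adjusted p = 0.912). Against siScramble cells it gave 0.10, 0.16, 0.13 and 0.20, a mean of 0.15 ± 0.04 (SD, n = 4; 95% interval 0.08 to 0.21; limma adjusted p = 0.0211). The replicates of this probe lay on both sides of 0 against wt cells and on the upper side against siScramble cells, short of the threshold. The sign depended on the dye: with si*Pax8* in Cy5 its ratio was 0.20 against wt and 0.33 against siScramble cells, and with si*Pax8* in Cy3 it was -0.18 and -0.04. A_42_P623909 had means of 0.01 (95% interval -0.11 to 0.12) and 0.10 (95% interval 0.03 to 0.16), and A_44_P548065 of -0.01 and 0.01. None of the probes of *Bcl2l1* passed the threshold in either comparison.

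*Bax*, the effector that forms pores in the mitochondrial membrane, stayed near 0. Probe A_43_P11800 (NM_017059, 10 spots per array) gave 0.11, 0.01, 0.03 and -0.07 against wt cells, a mean of 0.02 ± 0.08 (SD, n = 4; 95% interval -0.06 to 0.10; limma adjusted p = 0.775). Against siScramble cells it gave 0.03, 0.00, -0.08 and -0.08, a mean of -0.03 ± 0.06 (SD, n = 4; 95% interval -0.11 to 0.04; limma adjusted p = 0.671). The replicates lay on both sides of 0 in both comparisons.

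*Bid*, the BH3-only protein that links death receptors to mitochondria, had ratios of 0.04, 0.23, -0.01 and 0.06 against wt cells (probe A_44_P550497, NM_022684). The mean was 0.08 ± 0.11 (SD, n = 4; 95% interval -0.02 to 0.17; limma adjusted p = 0.242). Against siScramble cells the values were 0.06, 0.14, -0.07 and 0.07, with a mean of 0.05 ± 0.09 (SD, n = 4; 95% interval -0.04 to 0.14; limma adjusted p = 0.595). In each comparison 1 of the 4 values was below 0. With si*Pax8* in Cy5 alone *Bid* passed the threshold against wt cells (0.21, limma adjusted p = 0.00189), and with si*Pax8* in Cy3 alone its ratio was -0.05.

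*Bcl2l11* encodes Bim, a BH3-only protein that binds all guardians and is a strong inducer of apoptosis. It fell in both comparisons. Probe A_44_P508055 (NM_171988) gave -0.40, -0.48, -0.46 and -0.37 against wt cells, a mean of -0.43 ± 0.05 (SD, n = 4; limma adjusted p = 1.54e-05), or 74.3% of the level in wt cells. Against siScramble cells it gave -0.22, -0.26, -0.30 and -0.35, a mean of -0.28 ± 0.06 (SD, n = 4; limma adjusted p = 0.00272), or 82.1%. All 8 ratios were below 0, and the 4 against siScramble cells were each smaller in size than the 4 against wt cells. In normalized log2 intensity the probe stood at 7.80 ± 0.07 in wt cells, 7.62 ± 0.01 in siScramble cells and 7.37 ± 0.02 and 7.33 ± 0.06 in the si*Pax8* cells hybridized with each (SD, n = 4).

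The fall of *Bcl2l11* against wt cells passed the threshold under all 17 alternative settings (-0.73 to -0.38). Against siScramble cells the call was lost when any 1 replicate was left out (-0.31 to -0.26, limma adjusted p 0.0067 to 0.0232). From Agilent's own processed intensities the ratios were larger in size, -0.73 (limma adjusted p = 0.00125) and -0.55 (limma adjusted p = 0.0271). Within slides the ratio was -0.52 to -0.35 against wt and -0.32 to -0.25 against siScramble cells.

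**Figure D2:**
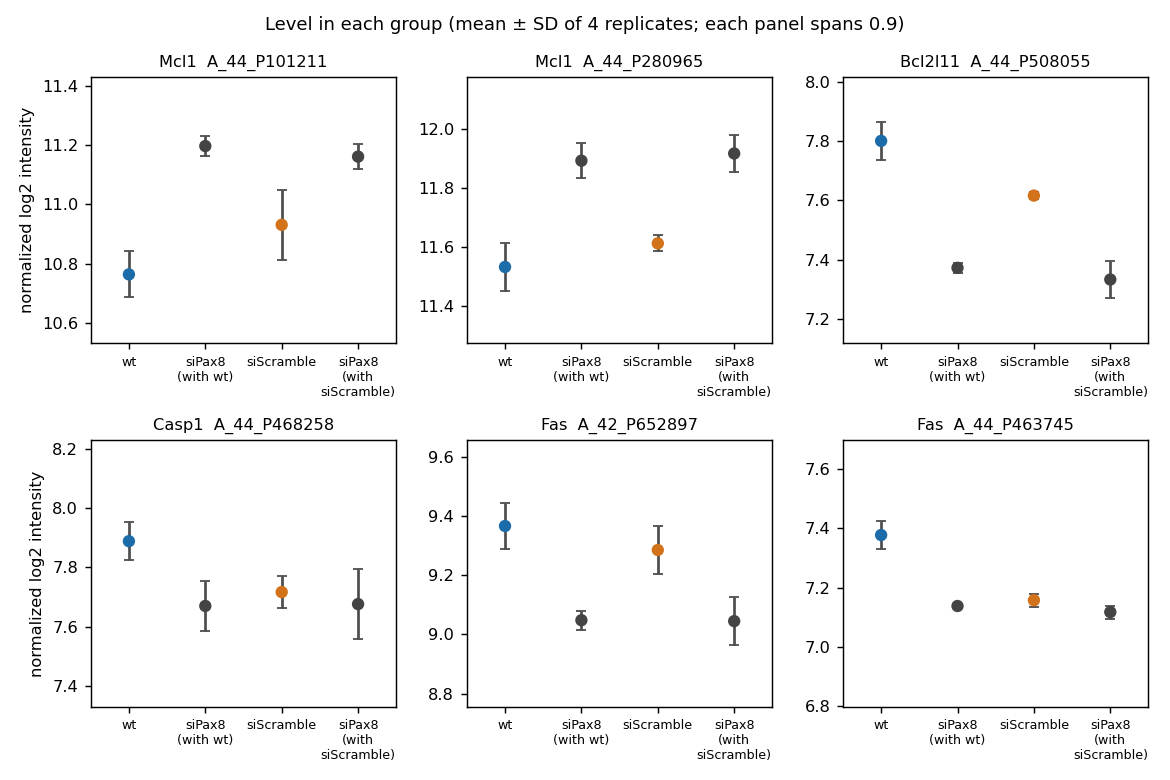
Normalized log2 intensity (y axis) of the probes of Mcl1, Bcl2l11, Casp1 and Fas in wt cells, siScramble cells and the siPax8 cells hybridized with each (x axis), as mean ± SD of 4 replicates. Each panel spans 0.9 on the log2 scale and levels compare within a panel only; Bcl2l11 falls from 7.80 in wt cells to 7.37 and Mcl1 probe A_44_P101211 rises from 10.76 to 11.20 in the siPax8 cells beside them.

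*Fas*, the receptor at the head of the extrinsic pathway, fell against wt cells on both of its probes (NM_139194). A_42_P652897 gave -0.17, -0.34, -0.40 and -0.36, a mean of -0.32 ± 0.10 (SD, n = 4; limma adjusted p = 0.000376), or 80.2% of the level in wt cells. A_44_P463745 gave -0.19, -0.21, -0.26 and -0.29, a mean of -0.24 ± 0.05 (SD, n = 4; limma adjusted p = 0.000429), or 84.7%. All 8 values were below 0, and replicate 1 was the smallest in size on both probes. The call of A_44_P463745 was lost without replicate 3 (-0.23, limma adjusted p = 0.00531), and from Agilent's own processed intensities its ratio was -0.58 (limma adjusted p = 0.00356). The same intensities ended the call of A_42_P652897 (-0.40, limma adjusted p = 0.0112). With si*Pax8* in Cy3 alone neither probe passed the threshold (A_42_P652897 -0.33, limma adjusted p = 0.00916, and A_44_P463745 -0.18, limma adjusted p = 0.0205).

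Against siScramble cells the probes of *Fas* differed. A_42_P652897 gave -0.10, -0.27, -0.21 and -0.38, a mean of -0.24 ± 0.12 (SD, n = 4; 95% interval -0.35 to -0.13; limma adjusted p = 0.0203). A_44_P463745 gave -0.04, -0.08, 0.02 and -0.06, a mean of -0.04 ± 0.04 (SD, n = 4; 95% interval -0.11 to 0.03; limma adjusted p = 0.527). Neither passed the threshold, and of the 8 values 1 was above 0. With the replicate block, which pairs the dye-swapped arrays of a replicate in 1 fit of 8 arrays, A_42_P652897 passed it (limma adjusted p = 0.00447). It also did with the slide as a block (limma adjusted p = 0.00146), a fit that does not pair the dye swaps of a replicate. The replicate block called 803 of all probes lower against siScramble cells, instead of 348. Within slides A_42_P652897 was -0.42 to -0.22 against wt and -0.33 to -0.16 against siScramble cells. Probe A_44_P463745 stood at 7.38 in wt cells, 7.16 in siScramble cells and 7.14 and 7.12 in the si*Pax8* cells (normalized log2 intensity), so that siScramble cells were nearer to si*Pax8* than to wt cells on this probe. A_42_P652897 was brighter, at 9.37 in wt and 9.29 in siScramble cells. The *Bcl2l1* probe at background, A_43_P12577, stood at 6.45 and 6.48. The part of brightness in the unlike ratios of the *Fas* probes was not tested.

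*Casp1*, the interleukin-converting enzyme of inflammasomes, was just short of the threshold against wt cells. Probe A_44_P468258 (NM_012762) gave -0.04, -0.31, -0.26 and -0.27, a mean of -0.22 ± 0.12 (SD, n = 4; 95% interval -0.32 to -0.12; limma adjusted p = 0.00599). Replicate 1 was the smallest in size. Without each replicate in turn the mean was -0.28 to -0.19 (limma adjusted p 0.000143 to 0.0415), and the threshold was passed only without replicate 1. *Casp1* also passed it with the replicate block (limma adjusted p = 0.00111), and in 9 of 17 alternatives in all (limma adjusted p 0.000143 to 0.0613). Against siScramble cells it gave 0.05, -0.01, -0.08 and -0.12, a mean of -0.04 ± 0.07 (SD, n = 4; 95% interval -0.12 to 0.04; limma adjusted p = 0.621), with replicates on both sides of 0.

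Whether the values against wt cells differed from those against siScramble cells was tested by limma on the 8 replicate ratios as separate groups. None of the 13 probes passed the threshold, in either direction, beside 1.6% of all probes called higher and 1.75% called lower. Without adjustment 5 of them had p below 0.05, 1 upwards (beside 11.2% of all probes) and 4 downwards (beside 10.9%). The difference was -0.20 (95% interval -0.29 to -0.11; limma adjusted p = 0.00824) for *Fas* A_44_P463745 and -0.15 (95% interval -0.24 to -0.05; limma adjusted p = 0.0524) for *Bcl2l11*. The 4 ratios of one comparison did not overlap the 4 of the other for these probes, nor for the *Bcl2l1* probe at background. The share of all probes without overlap was not counted. For *Mcl1* it was 0.20 (95% interval 0.07 to 0.33; limma adjusted p = 0.0528) on A_44_P101211 and 0.06 (95% interval -0.03 to 0.15; limma adjusted p = 0.514) on A_44_P280965, with overlapping replicates. *Casp1* had a difference of -0.18 (95% interval -0.31 to -0.04; limma adjusted p = 0.104), also with overlap. With the intensities before background correction and with the authors' normalized values, *Fas* A_44_P463745 passed the threshold for the difference (-0.29 and -0.23, limma adjusted p = 0.00278 and 0.00348).

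Across a wider set of death genes, ordered by role, 69 were listed and 56 were on the arrays. Without the 8 genes above there were 48 genes with 60 probes. Against wt cells 9 of these probes were higher (15%, beside 7% of all probes) and 5 lower (8.33%, beside 8.19%), with a median of 0.04 over genes. Against siScramble cells none of the 60 passed the threshold in limma (median -0.01). Without adjustment 9 upwards (15%, beside 8.54% of all probes) and 16 downwards (26.7%, beside 11.9%) had a p below 0.05 there. With the replicate block *Birc5* (-0.34, limma adjusted p = 0.00137) and *Hrk* A_44_P1042952 (-0.18, limma adjusted p = 0.00201) did pass against siScramble cells. That fit called 803 of all probes lower there, instead of 348. In the difference between the comparisons 5 probes were higher by limma (8.33%, beside 1.6% of all probes) and none lower, with 19 upwards (31.7%, beside 11.2%) and 7 downwards (11.7%, beside 10.9%) at an unadjusted p below 0.05.

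Among the other Bcl2 family genes, *Bbc3*, which encodes the BH3-only protein Puma, rose against wt cells. It gave 0.47, 0.41, 0.57 and 0.55, a mean of 0.50 ± 0.08 (SD, n = 4; limma adjusted p = 1.34e-05), and had a mean of 0.16 against siScramble cells (limma adjusted p = 0.187). *Hrk*, another BH3-only gene, rose against wt cells on probe A_44_P1042952 (0.30, limma adjusted p = 8.29e-05) and had a mean of -0.18 against siScramble cells (limma adjusted p = 0.0166). The other *Hrk* probe gave 0.06 and -0.15, so the probes had like values against siScramble cells and unlike values against wt cells. *Bok*, a pore former related to Bax, fell against wt cells (-0.24, limma adjusted p = 0.00212) and had -0.23 against siScramble cells (limma adjusted p = 0.0312). BH3-only genes as a list had 2 genes higher (*Bbc3*, *Hrk*) and 1 lower (*Bcl2l11*) of 9 measured against wt cells, and their median was 0.03. These were 2 and 1 of 11 probes, beside 7% and 8.19% of all probes. Against siScramble cells 0 of the 11 were higher and 1 lower (*Bcl2l11*), beside 1.18% and 0.849% of all probes, with a median of 0.05. The *Bok* call was lost without replicates 2, 3 or 4 in turn (-0.27 to -0.21).

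Of the 3 inflammatory caspases, 2 rose against wt cells, beside 7% of all probes called higher. *Casp4*, which senses intracellular lipopolysaccharide, gave 0.74, 0.57, 0.54 and 0.63 against wt cells, a mean of 0.62 ± 0.09 (SD, n = 4; limma adjusted p = 5.39e-06), and 0.21 against siScramble cells (limma adjusted p = 0.0221). *Casp12*, a relative at the endoplasmic reticulum, had 0.43 (limma adjusted p = 3.29e-05) and 0.17 (limma adjusted p = 0.0447). *Casp1*, the third of this class, had the negative mean given above. The initiators had no call, with *Casp8* at 0.09 in both comparisons and *Casp9* at -0.07 and -0.14 on its 2 probes against wt cells. Of the partners of *Casp1* in inflammasomes, 4 of 8 genes were on the arrays and none of their 5 probes had even an unadjusted p below 0.05 in limma. Of these, *Il18* and *Aim2* were not well above background on any array, and *Il1b* was so on at most 1 of 8 arrays of a group. Only *Pycard* was so on all 8 arrays of every group.

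Of 8 genes of death receptors and their ligands on the arrays, 2 rose against wt cells and 1, *Fas*, fell. These were 3 of 10 probes higher and 2 lower, beside 7% and 8.19% of all probes. *Tnfrsf1b*, the second TNF receptor, had a mean of 0.59 ± 0.13 (SD, n = 4; limma adjusted p = 2.79e-05) against wt cells, and *Tnfrsf12a*, the receptor of Tweak, had 0.42 and 0.26 on its 2 probes (limma adjusted p = 8.25e-05 and 0.000151). None of these passed the threshold against siScramble cells (0.25, 0.11 and 0.08). The ligand genes *Tnf* and *Tnfsf10* were not well above background on any array, and *Faslg*, the ligand of Fas, was so on 1 to 4 of 8 arrays of a group. *Fadd*, the adaptor that couples Fas to caspase-8, fell against wt cells (-0.27, limma adjusted p = 0.000497) and had -0.20 against siScramble cells (limma adjusted p = 0.00635), where it passed the threshold in 3 of 17 alternative settings. The call of *Fadd* against wt cells was lost with si*Pax8* in Cy5 alone (-0.11, limma adjusted p = 0.054), with median centring only (-0.23, limma adjusted p = 0.0558) and with Agilent's own processed intensities (-0.32, limma adjusted p = 0.0141). *Ripk3*, the kinase of necroptosis, had 0.22 and -0.20, neither past the threshold (limma adjusted p = 0.00941 and 0.0374), and with the replicate block the first was past it (limma adjusted p = 0.00412).

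Of 5 inhibitors of apoptosis and their antagonists on the arrays, 2 rose and 1 fell against wt cells, beside 7% and 8.19% of all probes. *Birc5*, which encodes survivin and is expressed in dividing cells, gave -0.53, -0.65, -0.81 and -0.72 against wt cells, a mean of -0.67 ± 0.12 (SD, n = 4; limma adjusted p = 9.01e-06), or 62.7%. Against siScramble cells *Birc5* had -0.34 (limma adjusted p = 0.00585), and it passed the threshold in 7 of the 17 alternative settings, the replicate block among them. *Birc2* and *Birc3*, ubiquitin ligases of TNF receptor complexes, rose against wt cells (0.25 and 0.29, limma adjusted p = 0.000245 and 0.00013) and were near 0 against siScramble cells (0.04 and -0.01). *Apaf1*, the scaffold of the apoptosome, fell against wt cells (-0.19, limma adjusted p = 0.00487) and had -0.18 against siScramble cells (limma adjusted p = 0.0788). The *Apaf1* call was short of the threshold in 9 of the 17 alternative settings and changed sign in 1, with a ratio of 0.02 when si*Pax8* in Cy5 alone was used. It was lost without replicates 1, 2 or 3 in turn (-0.19 to -0.16), and with the replicate block (limma adjusted p = 0.0404), the slide as a block (0.0116), both comparisons in 1 fit (0.0112), loess only (0.00888), median centring only (0.165) and Agilent's own processed intensities (0.0446).

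The genes outside the death genes whose 8 replicate ratios lay nearest to those of a member were sought among 6472 named probes well above background. For *Mcl1* A_44_P101211 they were *Rasd2*, *Dusp5* and *Lamp1*, with root mean square differences of 0.065, 0.071 and 0.073 on the log2 scale. For *Bcl2l11* they included *Mxd3* and *Knstrn*, with 0.061 and 0.064. *Dusp5*, a phosphatase of MAP kinases, had means of 0.52 against wt and 0.25 against siScramble cells, and *Mxd3*, a transcriptional repressor of the Max network, had -0.36 and -0.25.

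**Figure D3:**
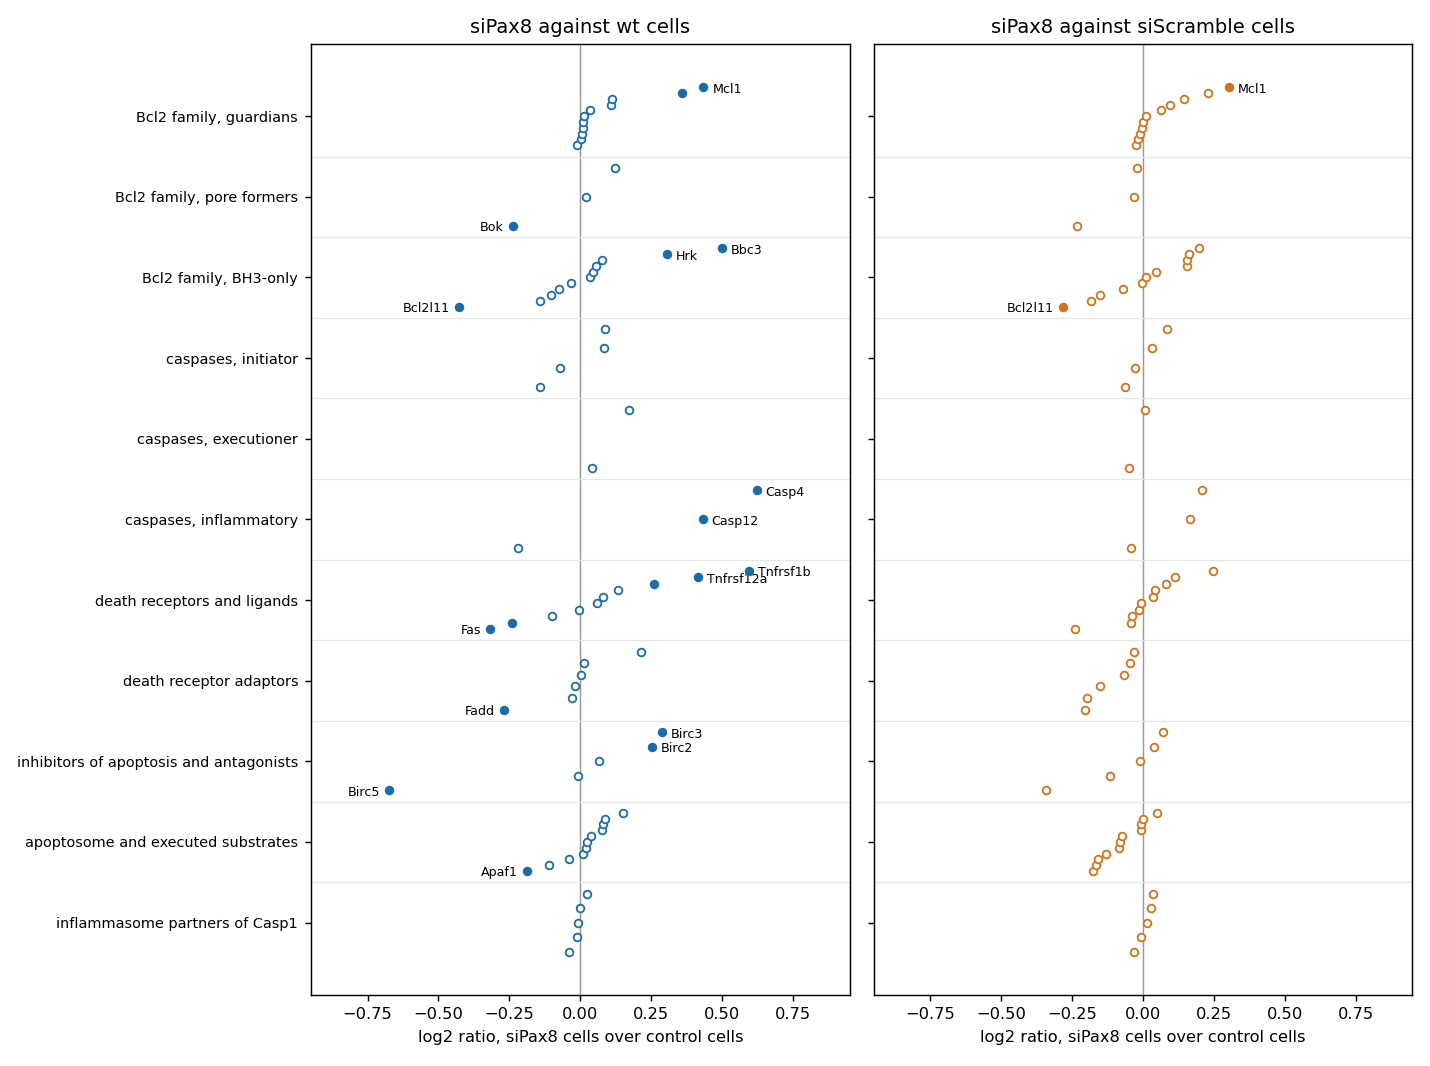
Log2 ratio of siPax8 over control cells (x axis) for probes of 11 lists of death genes, 1 list per row, with 1 panel for the comparison with wt and 1 for that with siScramble cells. Filled and labelled points passed the limma adjusted p threshold of 0.005; against wt cells they lie on both sides of 0, and against siScramble cells they are a probe of Mcl1 and that of Bcl2l11.

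**Figure D4:**
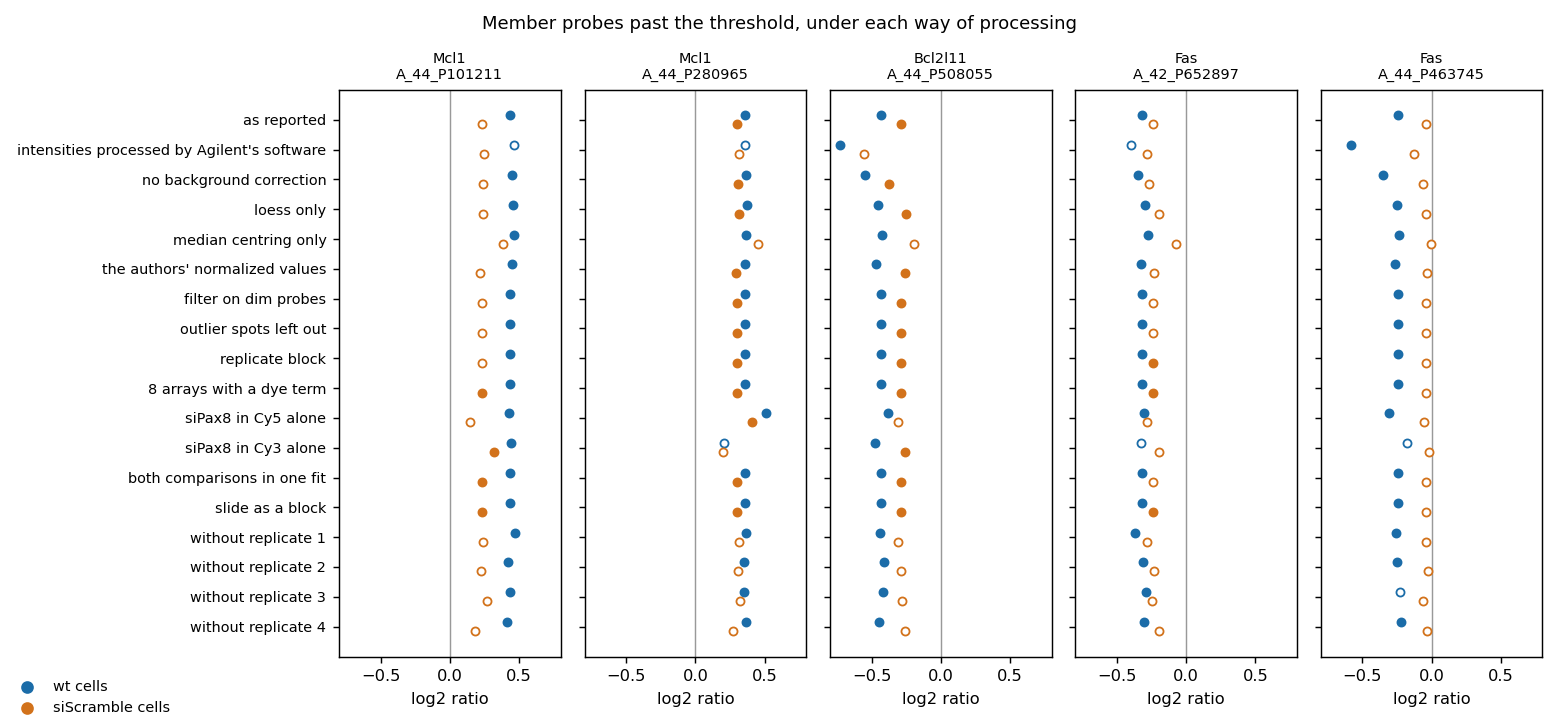
Log2 ratio of siPax8 over control cells (x axis) for the 5 probes called against wt cells, as reported and under 17 alternative settings, against wt and siScramble cells. The values of Bcl2l11 against wt cells run from -0.73 to -0.38, and no value of the 5 probes changes its sign in either comparison.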

How the data were processed

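The expression arrays of PCCl3 cells were analysed, 8 for each comparison, with condition, dye and replicate taken from the labels. The authors deposited a scanner file per array with mean spot and median background intensities of Cy3 and Cy5 (made by Feature Extraction 10.1.1.1 from a 5 µm scan per the file headers, while the methods give an older release and lower resolution), the intensities and ratios that Agilent's software had processed, with flags per spot, and a table of normalized log2 ratios. That table holds control over si*Pax8* (r with the ratios used here -0.999 to -0.993). Its column medians were 0.00057, 0.00098, 0.00084 and 0.0015 (wt, si*Pax8* in Cy5, replicates in order), 0.0061, 0.0049, 0.0054 and 0.0068 (wt, Cy3), 0.0013, -0.00011, 0.0029 and 0.0029 (siScramble, Cy5), and 0.0033, 0.0036, 0.0061 and 0.0060 (siScramble, Cy3).

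Mean intensities were background corrected (normexp, offset 50), normalized by loess within arrays, with control and outlier spots at weight 0, and by quantiles over all channels, using limma 3.58.1 and statmod 1.5.0 under R 4.3.3. Repeated spots of a probe and then both dye swaps of a replicate were averaged as log2 ratios. Deviations of same-numbered arrays correlated with 0.32, 0.12, 0.40 and 0.47 between dye orientations against wt cells and with 0.46, 0.51, 0.51 and 0.33 against siScramble cells, so they were treated as pairs. For replicate 2 against wt cells an array of another number correlated more highly (0.20), so there the pairing rests on the label. Between the comparisons same-numbered replicates correlated with 0.39, 0.17, 0.04 and 0.56, and replicate 3 more highly with another number (0.40). That pairing therefore served only as an alternative. Each comparison was fitted with lmFit and eBayes to 4 values, with Benjamini-Hochberg adjustment over 41012 probes and the methods' threshold of 0.005. The p-values rest on 4 replicates, which the labels number and a supplement of the study calls biological. The script was tested on simulated data.

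RefSeq accessions (GRCr8) named 10768 probes and left 30244 unnamed, and sequences were taken from RefSeq. The members and gene lists were chosen with earlier results of these data known. Named are all probes of the 8 genes, *Pax8*, each gene of the death lists with a call, *Casp8* and *Casp9*, and the genes nearest in pattern, and some genes that these rules name are not reported here. Alternatives were Agilent's processed intensities, no background correction, loess or median centring alone, the authors' log2 values, a filter on dim probes, outlier spots left out, a replicate block, a dye term, each dye orientation alone, both comparisons in 1 fit, the slide as a block and leaving out each replicate. The fits with a dye term and with the slide as a block did not join the dye swaps of a replicate. Within a comparison the replicate block joined them only through a correlation shared by all probes. Its p-values there also rest on more values than replicates. More calls in any of these fits are therefore no sign of a firmer result. The ChIP-Seq data were not used here.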

Additional observations from a re-analysis of the deposited data

Results flagged for a closer look

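In the replicates of each named probe, 64 groups of 4 values were examined for a value far from the other 3, of which chance gives about 1 in 20. One was found, *Casp9* A_44_P238608 against wt cells, where replicate 2 had a log2 ratio of -0.043 and the other 3 lay between -0.18 and -0.17.

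The difference between the comparisons, with 4 replicate ratios each, was tested by limma for 32 named probes and passed the adjusted p threshold for 5 of them, none from the 8 genes described first. *Hrk* A_44_P1042952 differed by 0.49 (0.30 against wt and -0.18 against siScramble cells, limma adjusted p = 6.2e-05) and *Casp4* by 0.41 (0.62 and 0.21, limma adjusted p = 0.00125). *Ripk3* differed by 0.42 (0.22 and -0.20, limma adjusted p = 0.00493), *Birc2* by 0.21 (0.25 and 0.04, limma adjusted p = 0.00447) and *Parp1* A_44_P1033023, whose product is a caspase substrate, by 0.24 (0.09 and -0.16, limma adjusted p = 0.00497). Replicate ratios of these probes were higher against wt than against siScramble cells in every case. When 1 replicate was left out, the differences of *Parp1* and *Birc2* were short of the threshold each time, with 0.21 to 0.26 and 0.20 to 0.23. With the replicate block the difference of *Birc2* was short of it too (0.21, limma adjusted p = 0.00535). That of *Ripk3* was so without replicates 2, 3 or 4 (0.38 to 0.44) and that of *Casp4* without replicates 1, 2 or 4 (0.36 to 0.43). The remaining one, *Hrk*, passed each time.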

How the results depend on the processing

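The 7 calls on probes of the 8 genes kept their direction in all 119 values under alternative settings, and 21 of these values were short of the threshold. Of 502 values without a call 456 stayed so in the same direction, 21 passed the threshold and 25 changed sign. For the other named probes the called values comprised 240 kept, 67 short of the threshold and 1 reversed of 308, and of 408 not called 29 passed and 11 changed sign.

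Member probes called higher against wt cells, 2 as reported, were 0 with Agilent's processed intensities, 4 with si*Pax8* in Cy5 alone and 1 in Cy3 alone, and those called lower, 3 as reported, were 1 in Cy3 alone. Against siScramble cells the 1 higher probe became 0 with Agilent's processed intensities and with median centring only, 3 with a dye term, 2 with both comparisons in 1 fit, 2 with the slide as a block and 0 to 0 without each replicate in turn. The 1 lower probe became 0 with Agilent's processed intensities, median centring only and si*Pax8* in Cy5 alone, 2 with a dye term and the slide as a block, and 0 to 0 without each replicate in turn. With the replicate block 2 probes were lower against siScramble cells (*Bcl2l11* and *Fas* A_42_P652897) and 4 against wt cells, *Casp1* being the added one. In the difference, 1 probe was lower without background correction and 1 with the authors' values. The cause of these shifts was not tested.

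Values that changed sign ran from -0.18 to 0.14 after the change. With median centring only they were -0.0023 (*Bcl2*), -0.098 (*Bax*), -0.089 (*Mcl1* A_44_P280965) and -0.081 (*Bid*) in the difference, 0.0051 for *Bcl2l1* A_44_P548065 against wt cells, and against siScramble cells 0.12 (*Bax*), 0.071 (*Casp1*), 0.14 (*Birc3*) and 0.089 (*Casp9* A_44_P238608). With si*Pax8* in Cy5 alone they were, against siScramble cells, -0.022 (*Bcl2*), -0.070 (*Bcl2l1* A_44_P548065), 0.019 (*Birc3*), -0.092 and -0.026 (*Tnfrsf12a*) and -0.016 (*Casp9* A_44_P121227), and against wt cells -0.024 (*Bcl2l1* A_42_P623909), -0.012 (*Parp1*) and 0.019 (*Apaf1*, called lower as reported). With si*Pax8* in Cy3 alone they were 0.057 (*Bcl2l1* A_44_P548065), -0.18 (*Bcl2l1* A_44_P254238) and -0.052 (*Bid*) against wt cells, -0.040 (*Bcl2l1* A_44_P254238) and -0.021 (*Bid*) against siScramble cells, and -0.030 (*Bid*) in the difference. With Agilent's processed intensities *Bcl2l1* A_44_P254238 had -0.0066 against wt cells and A_43_P12577, at background, 0.061 against siScramble cells, and 0.0094 without background correction. With loess only, *Birc3* had 0.027 against siScramble cells. Without each replicate in turn the ranges against wt cells were -0.0099 to 0.051 (*Bax* A_43_P11800), -0.034 to 0.076 (*Bcl2l1* A_42_P623909) and -0.020 to 0.048 (*Bcl2l1* A_44_P254238). Against siScramble cells they were -0.0024 to 0.021 (*Bcl2l1* A_44_P548065), -0.057 to 0.027 (*Birc3* A_43_P12384) and -0.0019 to 0.056 (*Casp9* A_44_P121227).

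Counts over all probes moved by more than 1.5 times with Agilent's processed intensities, to 956 higher and 798 lower against wt cells and to 24 and 5 against siScramble cells, from 2871 and 3357 and from 483 and 348. With median centring only they were 1770 and 1197, and 0 and 0. Against siScramble cells they were 889 and 803 with the replicate block, 1271 and 1307 with a dye term, 871 and 857 with both comparisons in 1 fit and 1197 and 1212 with the slide as a block. With si*Pax8* in Cy5 alone they were 136 and 72, in Cy3 alone 1671 and 1799, and with loess only 408 and 168. With si*Pax8* in Cy3 alone 1685 were higher and 1775 lower against wt cells. Without each replicate in turn, 82 to 255 were higher and 34 to 112 lower against siScramble cells, fewest without replicate 2, and 1640 to 3152 and 1711 to 3779 against wt cells, fewest without replicate 3. Same-numbered samples of the comparisons may not be paired: with the replicate block in the difference, which took them as pairs, no member probe passed the threshold, and 1085 of all probes were higher and 1101 lower instead of 655 and 718.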

Other observations

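*Gadd45a* was chosen after its values were seen. This stress gene, which halts the cell cycle, gave 1.76, 1.69, 1.71 and 1.79 against wt cells, a mean of 1.74 ± 0.05 (SD, n = 4; limma adjusted p = 8.48e-09), and 1.07, 1.01, 0.90 and 0.93 against siScramble cells, a mean of 0.98 ± 0.08 (SD, n = 4; limma adjusted p = 5.73e-05). Its replicates did not overlap between the comparisons, and the difference of 0.76 passed the threshold (limma adjusted p = 6.13e-06).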
